A study of Mus musculus with 3 samples.

Results

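The genes described here encode 10 C-type lectin receptors of myeloid cells, measured as chromatin-bound RNA in mouse bone-marrow-derived macrophages. They are Clec4e, Clec4d, Clec4n, Clec7a and Clec5a, which activate cells, Clec4a1, Clec4a2 and Clec4a3 of the DCIR family, the inhibitory receptor Clec12a, and Clec10a, which binds galactose-type sugars. The genes were picked out by their symbols, and all 10 were found among the 55536 genes of the tables. The list was chosen with earlier results of these data known. The macrophages were primary C57BL/6J cells grown from marrow and formed 1 group of 3 libraries. All cells had received Lipid A, the part of bacterial lipopolysaccharide that TLR4 recognises, at 100 ng/ml for 12 h, then spent 12 h after its removal, then met it again at 100 ng/ml for 10 min. The labels name 3 biological replicates from separate biosamples that share a donor identifier, and RNA input was 1000 ng, 250 ng and 500 ng in replicates 1, 2 and 3. No untreated cells were analysed here, so each comparison lies between genes or between the 3 libraries. In a bulk library, fewer cells of a kind and less RNA per cell cannot be told apart.

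C-type lectin receptors carry a domain that binds sugars or lipids on microbes and on dead cells. The activating ones pass their signal to the kinase Syk, most of them through an adaptor with a tyrosine motif (FcR gamma or DAP12), and from there to Card9, Bcl10 and Malt1 and on to NF-kappaB. Clec7a (Dectin-1) carries its own such motif. Inhibitory receptors carry a motif that recruits the phosphatases SHP-1 and SHP-2. Many of these genes lie side by side in clusters, and Clec4e is known as a gene that macrophages switch on in response to lipopolysaccharide.

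Chromatin RNA includes transcripts that are still being made, so introns are read along with exons. Several of these receptor genes have annotated transcripts that keep an intron, and much of their signal was assigned to these transcripts. The intron edges that those transcripts run through are shown because they are the places where this RNA differs from the spliced message. Each sequence has 60 bases, 20 of them exon in capitals and 40 of them intron in lower case. Both sequences of Clec4e intron 2 frame an intron that 2 annotated transcripts keep whole. All lie within the coding region and are given from 5′ to 3′ along the gene, on the mm10 assembly with GENCODE M21 transcripts.
Clec4e intron 2, start, chr6:123288854-123288913, minus strand: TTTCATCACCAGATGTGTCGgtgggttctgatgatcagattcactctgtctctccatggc
Clec4e intron 2, end, chr6:123286499-123286558, minus strand: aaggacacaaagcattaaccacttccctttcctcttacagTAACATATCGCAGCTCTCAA
Clec4e intron 3, start, chr6:123286392-123286451, minus strand: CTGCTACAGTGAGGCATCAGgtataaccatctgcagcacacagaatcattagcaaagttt
Clec12a intron 4, end, chr6:129359368-129359427, plus strand: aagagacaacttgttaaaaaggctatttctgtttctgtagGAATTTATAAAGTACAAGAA
Clec4d intron 3, end, chr6:123267952-123268011, plus strand: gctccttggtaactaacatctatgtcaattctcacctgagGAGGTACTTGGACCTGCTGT
Clec7a intron 2, start, chr6:129470849-129470908, minus strand: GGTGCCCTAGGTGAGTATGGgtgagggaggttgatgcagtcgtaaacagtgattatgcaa

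Expected counts on genes summed to 13538605, 19949204 and 18224466 in replicates 1, 2 and 3. The receptor genes together held 7782, 8306 and 6623 of these counts. A gene with no counts could still make up 0.222, 0.150 or 0.165 CPM (counts scaled to the library total on genes), the level that 3 counts give, in replicates 1, 2 and 3. That limit covers counting error only. Macrophage markers were present, with 11 of 12 reaching 1 TPM in all 3 libraries and a summed level of 1478 to 1739 TPM. TPM is a level scaled to transcript length and to the library's total. The missing marker was Cd163, at 0.117 TPM. Of 12 neutrophil markers 1 was detected by this rule, the receptor gene Csf3r, while Ly6g, Elane, Ltf, Retnlg, Cxcr2, Stfa1 and Stfa2 were listed at 0 TPM in all libraries of the gene tables. The read-based tables had a value above 0 for 4 of these 7, the highest being Cxcr2 at 4.66, 3.67 and 3.86 TPM in replicates 1, 2 and 3, and detected 3 of the 12 markers. In the gene tables, detected markers of other cells numbered 3 of 12 for dendritic cells (Tcf4, Batf3 and Zbtb46) and 1 of 6 for monocytes (Vcan). For B and T cells they numbered 0 of 6. The read-based tables detected 5, 4 and 2 markers of these lists. There the B and T cell marker Cd3d had 15.4, 11.6 and 14.3 TPM in replicates 1, 2 and 3, against a mean of 0.013 TPM in the gene tables. Summed levels in the gene tables were 109 to 145 TPM for dendritic cell markers and 3.06 to 7.90 TPM for monocyte markers over the libraries. They were 0.13 to 0.36 TPM for B and T cell markers and 86.8 to 124 TPM for neutrophil markers. Csf3r alone had 98.3 TPM and Tcf4 112 TPM of these sums. The dendritic cell marker Cd209a was listed at 0 TPM. The part of other cells in the receptors' levels was not tested.

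All 10 receptor genes were detected, with at least 1 TPM in each of the 3 libraries, against 45.6% of 22028 protein-coding genes. In the tables made from the reads all 10 were detected too, against 56.2% of protein-coding genes. At a threshold of 5 TPM in every library, 6 of the 10 were detected, against 32.0% of protein-coding genes. The receptors summed to 304, 283 and 245 TPM in replicates 1, 2 and 3 (277 ± 30.3, SD, n = 3). Their median level was 4.18 ± 0.18 on the log2(TPM + 0.1) scale (SD, n = 3). The median over detected protein-coding genes was 3.60 and over all protein-coding genes -0.43 on that scale. These values describe a chosen set of genes and carry no test.

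**Figure D1:**
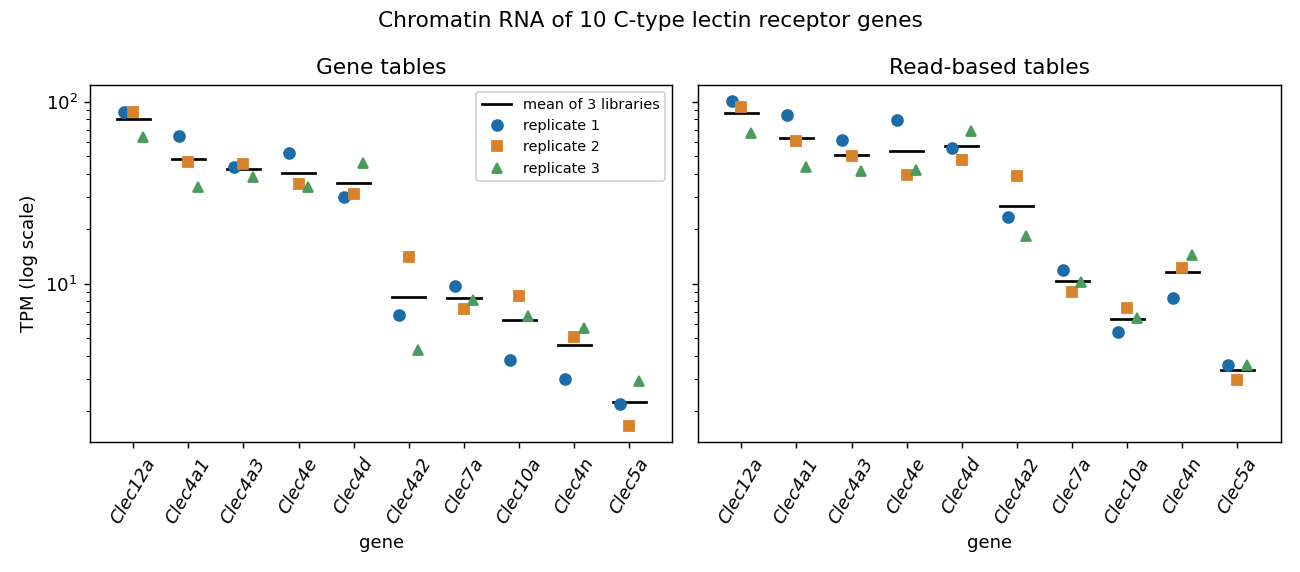
TPM of the 10 receptor genes (log axis) in each of the 3 libraries from the gene tables (left) and from the tables made from the reads (right), with a line at the mean. Clec12a to Clec4d have means of 35.6 TPM or more in the left panel, and the other 5 genes have means of 8.40 TPM or less.

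Among the activating receptors, Clec4e and Clec4d gave most of the RNA. Clec4e, which encodes Mincle, a receptor for mycobacterial cord factor, is the gene ENSMUSG00000030142.10 on chromosome 6 from 123281789 to 123289870, minus strand (mm10, as are all positions given). Its level was 52.6, 35.1 and 34.0 TPM in replicates 1, 2 and 3 (40.5 ± 10.4, SD, n = 3). Replicate 1 was high and the other two were nearly equal. Clec4e rested on 2605, 2259 and 2092 expected counts. The credibility interval of its level, which the authors' tables give around a posterior mean, ran from 47.2 to 52.4 TPM in replicate 1 and from 31.8 to 36.0 TPM in replicate 2.

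Clec4d encodes MCL, also called Dectin-3, a partner of Mincle, and lies beside it on the plus strand from 123262111 to 123275265 (ENSMUSG00000030144.4). The genes Clec4d and Clec4e point towards each other. Clec4d had 29.8, 30.9 and 46.1 TPM in replicates 1, 2 and 3 (35.6 ± 9.12, SD, n = 3), on 245, 328 and 434 expected counts. Here replicate 3 was high, the library in which Clec4e was lowest. The ratio of Clec4e to Clec4d TPM was accordingly 1.76, 1.13 and 0.737 in replicates 1, 2 and 3. The order of the pair in TPM was thus not the same in every library. In expected counts, which carry no scaling to length, Clec4e was the higher in each library, with 2605, 2259 and 2092.

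Clec7a, Clec4n and Clec5a were lower. Clec7a encodes Dectin-1, the receptor for fungal beta-glucan, and lies on chromosome 6 from 129461591 to 129472779 on the minus strand (ENSMUSG00000079293.11). It had 9.66, 7.22 and 8.16 TPM in replicates 1, 2 and 3 (8.35 ± 1.23, SD, n = 3). GENCODE M21 classes Clec7a as a polymorphic pseudogene, so it does not enter the counts of protein-coding genes.

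Clec4n encodes Dectin-2, a receptor for fungal mannans, on the plus strand of chromosome 6 from 123229843 to 123247021 (ENSMUSG00000023349.14). It had 3.00, 5.09 and 5.70 TPM in replicates 1, 2 and 3 (4.60 ± 1.42, SD, n = 3), on only 29, 61 and 74 expected counts. Clec5a encodes MDL-1, which signals through DAP12, and lies apart on chromosome 6 from 40574894 to 40585821 on the minus strand (ENSMUSG00000029915.14). It was the lowest of the 10 in TPM, with 2.19, 1.65 and 2.90 TPM in replicates 1, 2 and 3 (2.25 ± 0.627, SD, n = 3). Clec5a rested on 57, 62 and 96 expected counts, more than Clec4n in each library, so its place below Clec4n depends on the scaling to length. Clec4e thus stood above Clec5a in every library, by 24.0, 21.3 and 11.7 times in TPM.

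In the DCIR family, Clec4a1 and Clec4a3 were high and Clec4a2 was low. Clec4a1 (DCIR4, ENSMUSG00000049037.8, chromosome 6 from 122921848 to 122934619, plus strand) had 64.8, 46.9 and 34.0 TPM in replicates 1, 2 and 3 (48.5 ± 15.5, SD, n = 3). Its credibility intervals lie around posterior means of 59.6, 43.6 and 31.5 TPM, and each TPM value lay above its own interval. These intervals did not meet over the 3 libraries, running from 56.2 to 63.1 TPM, from 40.9 to 46.3 TPM and from 29.2 to 33.8 TPM. Each speaks of its own library alone, and Clec4a1 was not called as varying between libraries in the edgeR fit given below. Clec4a3 (DCIR3, ENSMUSG00000043832.13, from 122952515 to 122969875, plus strand) was steadier, with 44.0, 45.4 and 38.7 TPM (42.7 ± 3.51, SD, n = 3).

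Clec4a2 encodes DCIR1, which carries an inhibitory motif, and lies on the plus strand from 123106428 to 123143999 (ENSMUSG00000030148.15). It had 6.76, 14.1 and 4.34 TPM in replicates 1, 2 and 3 (8.40 ± 5.08, SD, n = 3), with replicate 2 high. The tables made straight from the reads gave Clec4a2 23.3, 38.9 and 18.4 TPM, a mean 3.20 times as high. Of the distinct 31-base stretches in Clec4a2 transcripts, 10.9% also occur in transcripts of another gene, 145 of them in Clec4a4 and 143 in Clec4b1. The part of shared sequence in this gap was not tested. Clec10a, which shares 14.8%, had a read-based mean 1.01 times that of the gene tables, and Clec4n, which shares 1.96%, had one 2.53 times as high. The level of Clec4a2 is therefore given as uncertain between the 2 kinds of table.

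Clec12a encodes MICL, an inhibitory receptor that senses uric acid crystals from dead cells, on the plus strand of chromosome 6 from 129342691 to 129365303 (ENSMUSG00000053063.11). It had the highest mean of the 10, with 87.8, 87.8 and 64.0 TPM in replicates 1, 2 and 3 (79.9 ± 13.7, SD, n = 3). It rested on 2702, 3139 and 2248 expected counts. Clec12a exceeded Clec7a, which lies in the same cluster, by 9.09, 12.2 and 7.84 times in TPM.

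Clec10a encodes MGL1, a receptor for galactose and N-acetylgalactosamine, and is the one gene of the 10 not on chromosome 6. It lies on chromosome 11 from 70156197 to 70170834 on the plus strand (ENSMUSG00000000318.16). Clec10a had 3.82, 8.51 and 6.66 TPM in replicates 1, 2 and 3 (6.33 ± 2.36, SD, n = 3), with replicate 1 low. It shared 14.8% of its 31-base stretches with other genes, 419 of them with Mgl2, its close relative, which had 0.03 TPM.

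The order of mean TPM was Clec12a, Clec4a1, Clec4a3, Clec4e, Clec4d, Clec4a2, Clec7a, Clec10a, Clec4n and Clec5a. Of the 9 pairs of neighbours in this order, 2 did not overlap over the 3 libraries. Clec4d stood 4.24 times above Clec4a2, and Clec4n stood 2.05 times above Clec5a, where the lowest value of Clec4n (3.00 TPM) only just exceeded the highest of Clec5a (2.90 TPM). Expected counts, which carry no scaling to length, put Clec5a above Clec4n in each library. The values of the other 7 pairs overlapped over the libraries. Within these, Clec12a was above Clec4a1, and Clec10a above Clec4n, in each of the 3 libraries, which was not tested, and the other 5 pairs changed order between libraries. By the read-based values, 4 of 9 neighbouring pairs did not overlap, and Clec12a was again first and Clec5a last.

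The median of the activating receptors was 3.29, 2.87 and 3.05 and that of the DCIR family 5.46, 5.51 and 5.09 on the log2(TPM + 0.1) scale in replicates 1, 2 and 3. The activating median was lower in 3 of 3 libraries, by a difference of -2.28 ± 0.31 (SD, n = 3). This difference is a description of 5 and 3 chosen genes and has no test. The mean levels of Clec4e and Clec4d lay within the range of the DCIR family's means, while Clec7a, Clec4n and Clec5a set the low median. With means over the genes in place of medians the difference was -1.25. In summed TPM the activating group and the DCIR family were close, at 33.3% ± 5.78 and 35.7% ± 3.64 of the receptors' RNA (SD, n = 3). Clec12a held 28.7% ± 2.45. In read-based TPM the 2 groups held 37.1% and 37.7%. In expected counts, which carry no scaling to length, the activating group was higher in each library. It held 38.9% ± 4.37 there, against 24.1% ± 2.43 for the DCIR family (SD, n = 3 each).

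Coding sequences were most alike within the DCIR family. Clec4a2 and Clec4a3 were identical at 77.2% of aligned bases, Clec4a1 and Clec4a2 at 75.1%, and Clec4a1 and Clec4a3 at 73.4%, the 3 highest values among the receptors' pairs. Clec4d and Clec4e, which lie side by side, were identical at 63.7% of aligned bases and shared no 31-base stretch. Clec4a1 likewise shared no such stretch with the annotated transcripts of any other gene. Introns outside annotated transcripts and the rest of the genome were not compared.

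Of the 10 genes, 9 lie on chromosome 6, and 8 of these fall in 2 clusters. The Dectin-2 cluster, from Clec4a1 to Clec4e, spans 368 kb (123289870 is its last base) and holds 13 annotated genes. Its 6 receptors of the set held 65.1% ± 2.05 of the receptors' summed TPM (SD, n = 3), with 66.0%, 62.8% and 66.6% in replicates 1, 2 and 3. Their levels summed to 180 TPM, against 1.67 TPM for the other 7 genes of the cluster. Of the 13 genes 9 are protein-coding, and the rest are pseudogenes and an snRNA gene. Among the other 7, the highest read-based means were 4.90 TPM for Clec4a4, 2.08 TPM for Clec4b1 and 1.97 TPM for the pseudogene Gm44147. In TPM over all transcripts the cluster's high genes stood at its ends, with Clec4a1 and Clec4a3 at one and Clec4d and Clec4e at the other. Between them lay Clec4a4 (DCIR2) at 1.39 TPM, Clec4b1 at 0.277 TPM, Clec4a2, Clec4n, and Clec4b2, which was listed at 0 TPM. The cluster was bounded by the receptors themselves. On transcripts annotated as coding, Clec4d (9.87 TPM) and Clec4e (7.63 TPM) were near Clec4a2 (8.40 TPM). In read-based coding values Clec4a2 (26.9 TPM) was above Clec4d (12.2 TPM) and Clec4e (6.95 TPM).

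The Dectin-1 cluster from Clec12a to Clec7a spans 130 kb and holds 7 annotated genes. Clec12a and Clec7a held 31.7% ± 2.07 of the receptors' TPM (SD, n = 3) and summed to 88.2 TPM, against 6.49 TPM for the 5 genes between them. Those included Clec1b (CLEC-2) at 3.49 TPM, Clec12b at 1.35 TPM, Clec9a at 0.91 TPM and Clec1a at 0.33 TPM. Here too the higher genes were at the edges, although the cluster was bounded by the receptors themselves.

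**Figure D2:**
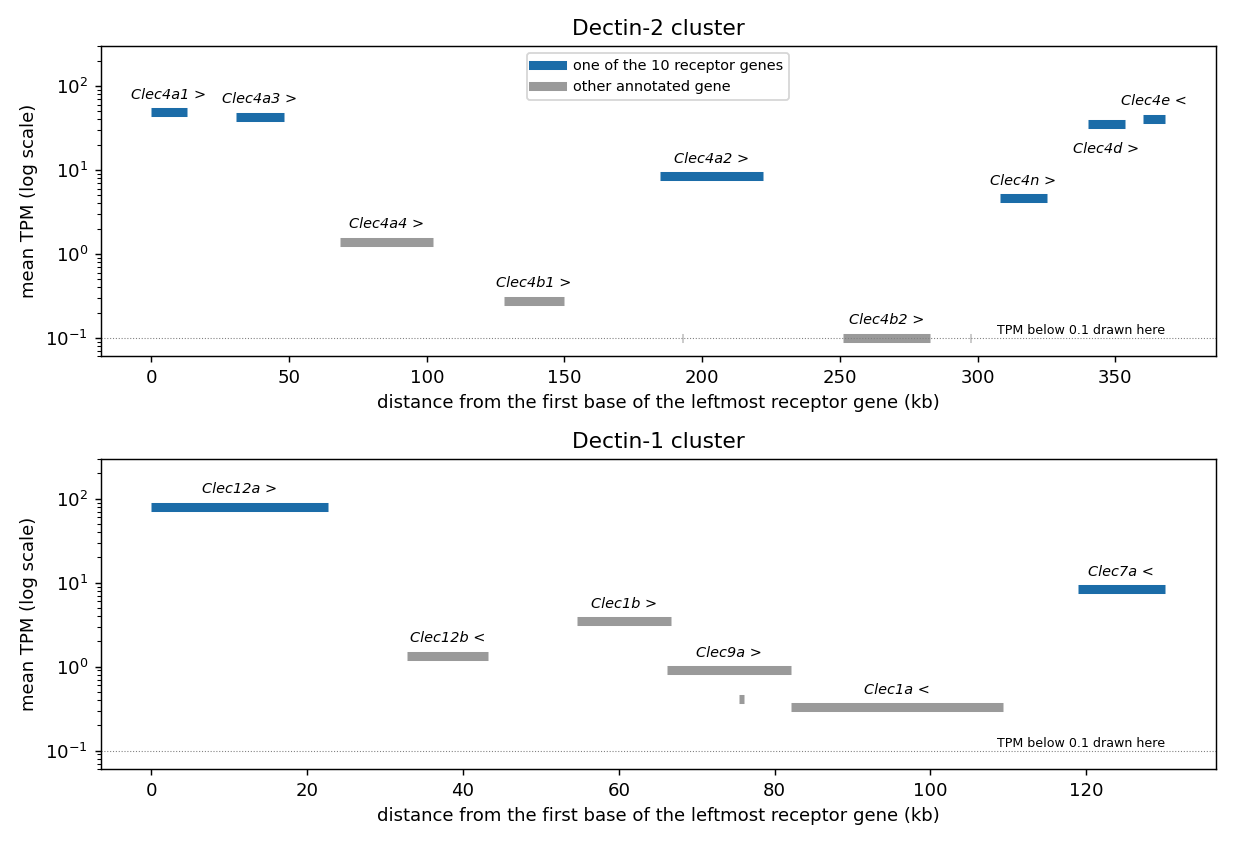
Mean TPM over 3 libraries (log axis) of every annotated gene between the outermost receptor genes of the Dectin-2 and Dectin-1 clusters, against distance in kb, with arrowheads for the strand. In the Dectin-2 cluster the middle genes Clec4a4 (1.39 TPM) and Clec4b1 (0.277 TPM) lie far below Clec4a1 (48.5 TPM) and Clec4e (40.5 TPM) at the ends.

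Much of the TPM of Clec4e, Clec12a and Clec4d was assigned to transcripts annotated as keeping an intron. Of 47 annotated transcripts of the receptor genes, 9 are of this class, spread over 5 genes (Clec4d, Clec4e, Clec7a, Clec12a and Clec10a). They took 38.9% ± 1.66 of the receptors' TPM (SD, n = 3), against 37.2% ± 0.578 over all protein-coding nuclear genes. In expected counts, which are not scaled to length, they took 50.8% ± 0.972 of the receptors' counts, against 23.7% ± 0.775 over all protein-coding nuclear genes (SD, n = 3 each). In read-based TPM the shares were 33.4% ± 2.55 for the receptors and 33.6% ± 0.414 over all protein-coding nuclear genes (SD, n = 3 each), so whether the receptors stood above the other genes depended on the measure. These transcript classes are the annotation's, and intron reads of a gene with no such transcript are counted in none. Whether the reads come from RNA not yet spliced or from stable transcripts that keep the intron was not tested.

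In Clec4e, retained-intron transcripts held 79.7%, 81.2% and 82.2% of the gene's TPM in replicates 1, 2 and 3 (81.0% ± 1.26, SD, n = 3), and 88.7% ± 0.754 of its expected counts (SD, n = 3). The spliced coding transcript Clec4e-201 held 18.4% ± 0.92. Clec4e-205 held 41.7% ± 6.60 and Clec4e-206 held 36.4% ± 6.88, and both keep the whole of intron 2, which runs from 123288893 down to 123286519 and has 2375 bases. Its start and end are the first pair of sequences above. Clec4e-205 also keeps intron 3, of 72 bases. The read-based tables gave the retained-intron class 53.1% ± 2.28 of Clec4e, and gave 33.7% ± 3.11 to Clec4e-204, a transcript of 370 bases annotated for nonsense-mediated decay. The gene-format tables listed Clec4e-204 at 0 TPM in all 3 libraries.

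In Clec12a, retained-intron transcripts held 55.3%, 66.4% and 64.0% of TPM in replicates 1, 2 and 3 (61.9% ± 5.84, SD, n = 3), and 60.7% ± 4.37 of its expected counts (SD, n = 3). Clec12a-202, with 42.4% ± 1.06, begins inside intron 4 and covers 2606 of its 4779 bases up to the end shown above. Clec12a-203, with 19.5% ± 4.85, covers 174 of the 196 bases of intron 2. The coding transcript Clec12a-201 held 38.1% ± 5.84.

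In Clec4d, the retained-intron transcript Clec4d-202, which covers the last 270 of the 829 bases of intron 3, held 61.3%, 57.6% and 59.7% of TPM in replicates 1, 2 and 3 (59.5% ± 1.85, SD, n = 3). The coding transcript Clec4d-201 held 28.4% ± 7.41. By expected counts the coding transcript led instead, with 35.5% ± 3.89 on Clec4d-202, of 593 bases, and 50.7% ± 10.6 on Clec4d-201, of 1323 bases (SD, n = 3 each). In Clec7a the transcript Clec7a-203, which covers 349 of the 1895 bases of intron 2, held 53.4%, 37.6% and 28.7% of TPM (39.9% ± 12.5, SD, n = 3), a share that varied widely, and 16.7% ± 9.10 of its expected counts (SD, n = 3). Clec7a-204, the transcript classed as a polymorphic pseudogene, held 38.5% ± 10.3. In Clec10a the class held 0%, 23.4% and 11.7% of TPM in replicates 1, 2 and 3, on a mean of 3.03 expected counts.

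**Figure D3:**
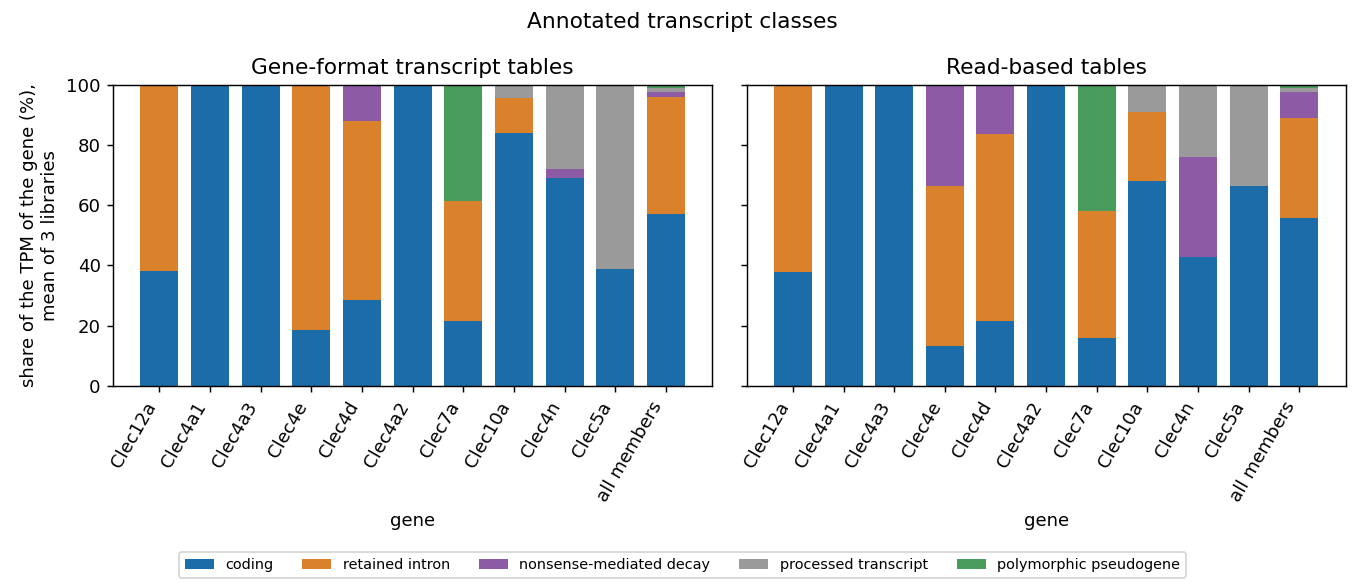
Share of each receptor gene's TPM (percent, mean of 3 libraries, stacked from 0) in each annotated transcript class, in the gene-format transcript tables (left) and the read-based tables (right). Retained-intron transcripts hold 81.0% of Clec4e, 61.9% of Clec12a and 59.5% of Clec4d in the left panel, and Clec4a1, Clec4a2, Clec4a3, Clec4n and Clec5a have none annotated.

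The order of the genes therefore differed when only transcripts annotated as coding were taken, a choice made after the values were seen. For Clec7a its polymorphic pseudogene transcript was included. Clec4a1 was then first with 48.5 ± 15.5 TPM, Clec4a3 second with 42.7 ± 3.51 TPM and Clec12a the third with 30.6 ± 8.16 TPM (SD, n = 3 each). Clec4d had 7.52, 11.4 and 10.7 TPM in replicates 1, 2 and 3, and Clec4e had 10.3, 6.59 and 6.06 TPM. Clec4e averaged 7.63 ± 2.28 TPM on coding transcripts (SD, n = 3), against 40.5 TPM over all its transcripts. Clec5a averaged 0.833 ± 0.325 TPM on coding transcripts, since its processed transcript Clec5a-201 held 61.1% ± 19.5 of the gene. On this basis the activating median minus that of the DCIR family was -3.03 on the log2(TPM + 0.1) scale. The read-based tables also put these genes first, with 63.0, 51.1 and 33.3 TPM for Clec4a1, Clec4a3 and Clec12a on coding transcripts.

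No receptor gene was called as varying between the 3 libraries more than genes of like level do. In edgeR's negative binomial fit with an intercept alone, 0 of 10 were called at an adjusted p (Benjamini-Hochberg) below 0.05, against 166 of 14789 genes tested (1.12%). DESeq2's dispersion outliers also held 0 of the 10, against 0.412% of the same genes. At an unadjusted p below 0.05 the edgeR test had 2 of the 10, against 899 of the genes tested (6.08%). These were Clec4a1 (adjusted p = 0.359 in edgeR) and Clec4a2 (adjusted p = 0.769 in edgeR). The count also stayed at 0 of 10 under every alternative to the edgeR fit. The share of all genes called was then 0.371%, 0.518% and 0.389% without replicate 1, 2 or 3, 1.15% in the read-based tables, 0.901% with no filter on low counts and 1.09% among protein-coding nuclear genes. Such p-values speak of the scatter among these libraries alone, which may in part be technical. With 3 libraries, a p that misses the threshold does not show that the levels were equal.

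The receptors' SD of log2(TPM + 0.1) over the 3 libraries had a median of 0.369 and ran from 0.121 for Clec4a3 to 0.847 for Clec4a2. The median over 10050 detected protein-coding genes was 0.208. In log2 CPM the medians were 0.358 for the receptors and 0.192 for all genes tested. Neither comparison set was matched to the receptors in counts, and these differences in spread were not tested. The libraries did not order the genes alike. Replicate 3 was lowest for 5 genes (Clec12a, Clec4a1, Clec4a2, Clec4a3 and Clec4e) and highest for 3 (Clec4d, Clec4n and Clec5a). Replicate 1 was highest for Clec4a1, Clec4e and Clec7a, and lowest for Clec4d, Clec4n and Clec10a. RNA input, depth and library moved together with 1 library at each amount and cannot be told apart.

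**Figure D4:**
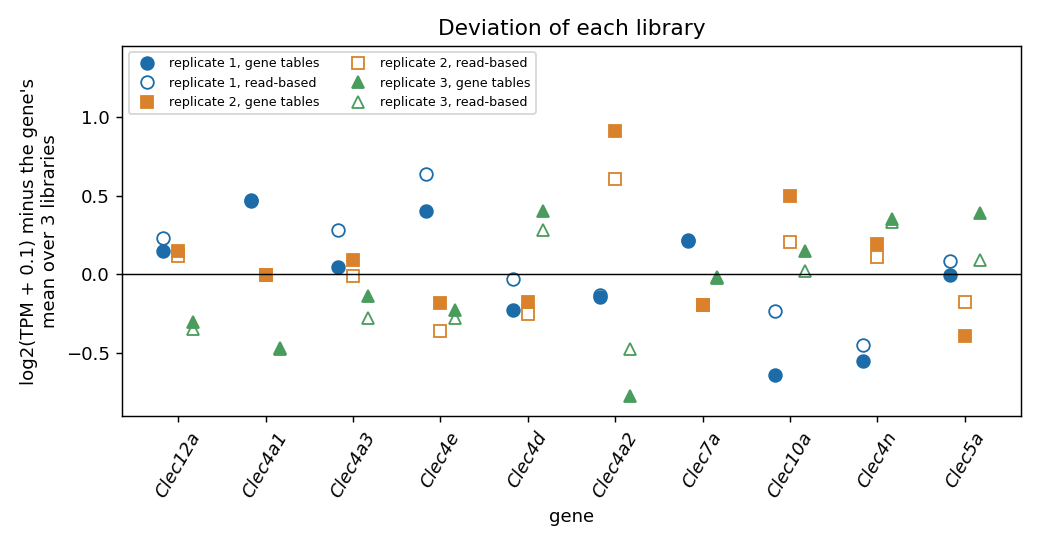
Deviation of each library's log2(TPM + 0.1) from the gene's mean over 3 libraries, with filled symbols for the gene tables and open symbols for the read-based tables. The deviations of Clec4a2 are the widest, at 0.91 in replicate 2 and -0.77 in replicate 3 in the gene tables, and Clec4e and Clec4d deviate in opposite directions in replicates 1 and 3.

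The signalling genes that serve these receptors were nearly all present. Of 21 such genes, 20 had at least 1 TPM in every library, against 45.6% of protein-coding genes. The median of the 21 was 5.92 ± 0.065 on the log2(TPM + 0.1) scale (SD, n = 3), against 3.60 over detected protein-coding genes. These too are chosen genes, and the difference was not tested. The 4 highest were Prkcd at 349 ± 50.4 TPM, Syk at 252 ± 37.5 TPM, Inpp5d (SHIP-1) at 184 ± 20.3 TPM and Lyn at 170 ± 46.7 TPM (SD, n = 3 each). Prkcd, or protein kinase C delta, links Syk to Card9. The gene below the threshold was the Src-family kinase Fgr, at 0.553 ± 0.131 TPM.

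Among the adaptors, Fcer1g (FcR gamma), the partner of Mincle, MCL and Dectin-2, had 128, 124 and 81.9 TPM in replicates 1, 2 and 3. Tyrobp (DAP12), the partner of MDL-1, had 24.4, 32.7 and 18.5 TPM, and Hcst (DAP10) had 3.60, 2.24 and 2.71 TPM. Fcer1g thus exceeded each of the activating receptors in TPM in every library. In expected counts, which carry no scaling to length, Fcer1g had 724, 778 and 479. There it lay below Clec4e, with 2605, 2259 and 2092, in each library. Downstream, Malt1 had 102 ± 28.1 TPM, Card9 51.7 ± 15.2 TPM and Bcl10 12.9 ± 0.276 TPM (SD, n = 3 each). Ptpn6 (SHP-1), a phosphatase that the inhibitory receptors recruit, had 112 ± 25.1 TPM, and Ptpn11 (SHP-2) had 6.44 ± 0.584 TPM (SD, n = 3 each).

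**Figure D5:**
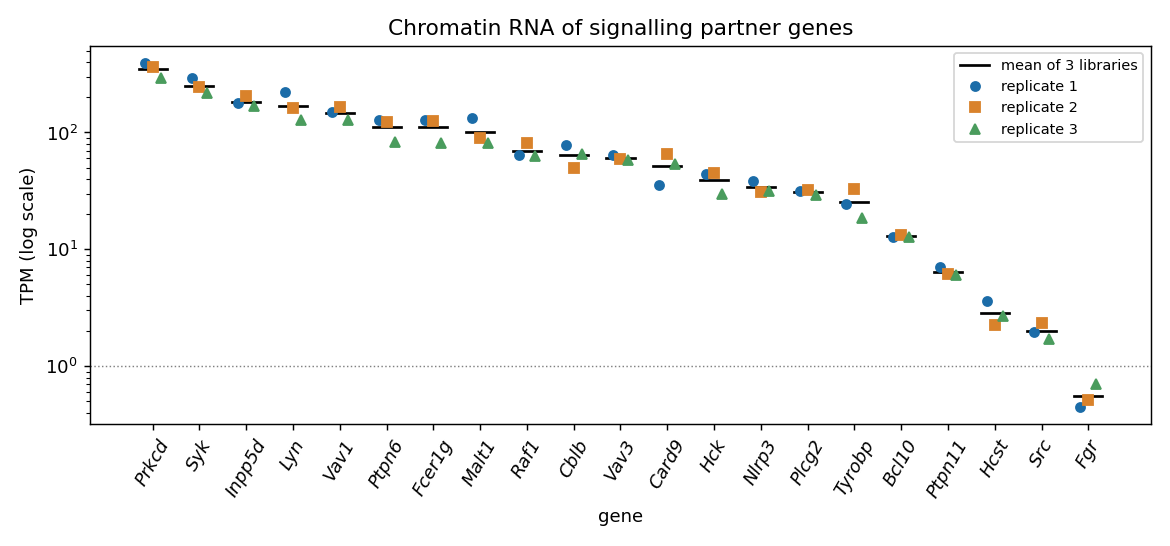
TPM (log axis) of 21 genes that signal downstream of the receptors, in each of the 3 libraries, with a line at the mean. All but Fgr lie above the dotted line at 1 TPM in every library, and Prkcd and Syk are highest with means of 349 and 252 TPM.

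Of 28 other C-type lectin genes, 8 had at least 1 TPM in every library, against 10 of 10 receptors of the set and 45.6% of protein-coding genes. The 4 highest by mean were Clec2d at 293 ± 34.0 TPM, Mrc1 (the mannose receptor) at 38.5 ± 8.39 TPM, Cd69 at 6.59 ± 2.63 TPM and Clec2g at 4.45 ± 3.84 TPM (SD, n = 3 each). Clec2g was not among the 8, since it had 6.33, 6.98 and 0.03 TPM in replicates 1, 2 and 3. Clec2d was thus above Clec12a, the highest receptor of the set, in every library. Listed at 0 TPM in all libraries were 11 genes, namely Clec4b2, Clec4f, Clec4g, Clec14a, Cd207, Cd209a, Cd209b, Cd209d, Cd209e, Asgr1 and Klrb1b. The read-based tables had a value above 0 for 3 of these 11.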

How the data were processed

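Total RNA-seq of the chromatin fraction was analysed in 3 libraries. The authors deposited tables per gene and per transcript whose columns are those of RSEM and hold expected counts, TPM, posterior means and bounds of credibility intervals (taken here as a signal with its precision). They also deposited estimated counts and TPM per transcript in the columns of kallisto, called read-based here. The assembly mm10 and annotation M21 are named in the deposited notes. For the aligner, the quantifiers and the treatment of strand, no name or setting was found (not given in the sources used here). No exon of a receptor gene overlaps an exon of another annotated gene. TPM sums over all RNA of a table, and protein-coding nuclear genes held 29.9%, 30.8% and 27.3% of it in replicates 1, 2 and 3.

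Symbols, classes and positions came from GENCODE M21, and sequences from its transcripts. The read-based values were summed per gene. Entries that name no gene held 1.39%, 0.288% and 0.283% of counts in replicates 1, 2 and 3 and were left out. Expected counts were rounded and fitted in edgeR 4.0.16 (R 4.3.3; filterByExpr, TMM, trended dispersion, chi-square test of each gene's deviance, Benjamini-Hochberg adjustment over all genes). The fit was tested on simulated data. DESeq2 1.42.0, the read-based tables, other thresholds, pseudocounts and scalings, and leaving out each replicate were alternatives. Python 3.11.15, pandas 2.3.3 and Biopython 1.88 were used. The pseudocount was 0.1 TPM. All 10 members are named with values per library, and of other lists the 4 highest genes and those listed at 0. Members, lists and tests were chosen with earlier results of these data known.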

Additional observations from a re-analysis of the deposited data

How the results depend on the processing

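Detection of all 10 receptors held in the read-based tables and fell to 6 at a threshold of 5 TPM. It was also 10 after rescaling to protein-coding nuclear genes and without any one replicate (10 to 10). Neither of these settings could lower it, since rescaling raises every level and fewer libraries make the rule easier to meet. On coding transcripts alone, an alternative added after seeing the data, it was 9. The difference between activating and DCIR-family medians ran from -2.40 to -2.11 without one replicate. It was -1.97 in the read-based tables, -1.25 with means and -3.03 on coding transcripts. The retained-intron share ran from 38.0% to 39.7% without one replicate and was 33.4% in the read-based tables (33.6% over all protein-coding nuclear genes there) and 50.8% of expected counts. The Dectin-2 cluster's share ran from 64.4% to 66.3%, and was 71.1% and 60.1% in those settings. The cause of these shifts was not tested. No receptor was called variable under any alternative, including those without one replicate (0 to 0). Only 0.371% to 1.15% of all genes tested were called in any setting, so a count of 0 among 10 genes says little. Of the 10 levels, 7 moved by more than 1 SD in the read-based tables, all upward, by up to 3.20 times for Clec4a2. On coding transcripts alone 6 moved, all downward. With posterior means 1 moved. Rescaling raised all 10 by construction, by 3.34 to 3.46 times. Without one replicate, 0 of 10 moved by more than 1 SD. That outcome was fixed in advance, since leaving out 1 of 3 values cannot move a mean by 1 SD.

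No paired analysis was possible because all libraries belong to 1 group. Depth limits Clec4n, Clec5a, Clec7a and Clec10a most, and 3 libraries limit every SD given.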
